A study of Homo sapiens with 16 samples.

Results

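Cohesin-CTCF sites with transcription factors are stretches of the LoVo genome where RAD21, CTCF and at least 1 of HNF4A, KLF5 and MYC were all listed as bound in S phase. A row of the S-phase RAD21 list was taken as such a site if it overlapped, by at least 1 bp, a row of the S-phase CTCF list and a row of the S-phase list of 1 or more of the 3 factors. The members were thus chosen by S-phase overlaps alone. The rule was met by 2691 of the 27122 S-phase RAD21 rows, or 9.92%. These sites are called factor-bearing sites below and were followed through the M-phase lists, which the rule did not use. The most alike class was the 17987 RAD21 rows that overlapped a CTCF row and no factor row, called factor-free sites. A further 2027 RAD21 rows overlapped a factor row and no CTCF row, and 4417 overlapped neither.

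The lists come from chromatin immunoprecipitation and sequencing (ChIP-seq) of LoVo, an established human colon adenocarcinoma line, with 1 library per target and phase. S-phase cells had been held by 2 blocks of 12 h in 2 mM thymidine, which stalls DNA synthesis, with 8 h of release between them. M-phase cells had been held by 1 block of 12 h in 2 mM thymidine and then 8 h in 200 ng/ml nocodazole, which prevents the spindle from forming. In both phases cells were cross-linked with 1% formaldehyde, chromatin was sheared to 200 to 400 bp, and 5 µg of antibody was used. Rabbit IgG was the control for RAD21, HNF4A, KLF5, MYC and histone H3, and goat IgG the control for CTCF. Each library pools many cells, so a site bound in fewer cells and a site bound less strongly in each cell cannot be told apart. The cells were not sorted, so cells outside the intended phase may be among them. Their part in the M-phase rows was not tested. The labels of these samples carry no siRNA, although the design text of the series names one.

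Cohesin is a protein ring that embraces DNA, keeps sister chromatids paired and shapes chromatin loops, and RAD21 is the subunit that closes the ring. CTCF is a zinc-finger protein with a long DNA motif at which moving cohesin is halted, which places cohesin at loop anchors. In early mitosis much of the cohesin on chromosome arms is removed, while many transcription factors lose contact with the condensed chromosomes. HNF4A is a nuclear receptor that sets the enterocyte and hepatocyte programmes. KLF5 is a Krüppel-like factor of dividing crypt cells, and MYC binds E-box motifs and drives growth. Sites that hold cohesin, CTCF and such factors together therefore carry proteins that are known to part from chromatin to different degrees in mitosis.

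With 1 library per target and phase there was no spread between samples and no test across samples. Intervals are 95% intervals over sites and cover counting error only. Filtered tags per ChIP library ran from 7362169 to 16813394, and the M-phase libraries held 2.19 times the tags of S phase for RAD21, 1.89 times for CTCF, 1.38 times for HNF4A and 1.65 times for MYC, but 0.712 times for KLF5. Per the file headers, CTCF and goat IgG in S phase were read from an alignment folder named unlike that of the remaining S-phase libraries. The M-phase KLF5 list has 2118 rows, a number that the labels give to the M-phase rabbit IgG library, so KLF5 values in M phase carry a doubt about that list. Whether the KLF5 and rabbit IgG libraries were exchanged was not tested. The same M-phase rabbit IgG library was the control for M-phase RAD21, HNF4A, MYC and H3, so the doubt reaches those lists too. All positions are hg18.

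In M phase the factor-bearing sites held CTCF more often, counted by an overlap of at least 1 bp, and RAD21 less often than the factor-free sites. An M-phase CTCF row lay at 2278 of the 2691 factor-bearing sites, or 84.7% (83.2 to 86.0%), against 78.3% of factor-free sites and 65.6% of all S-phase RAD21 rows. An M-phase RAD21 row lay at 1944 of them, or 72.2% (70.5 to 73.9%), against 82.5% of factor-free sites. Over all S-phase RAD21 rows the RAD21 share was 69.7%, near that of factor-bearing sites. The whole list includes the rows without CTCF, where RAD21 was found at 24.96% with a factor and 36.7% without one. The difference between factor-bearing and factor-free sites was 6.36 percentage points for CTCF (Newcombe interval 4.83 to 7.81) and -10.3 points for RAD21 (-12.1 to -8.53). At factor-bearing sites CTCF was found more often than RAD21 with a 1-bp overlap and under 8 of the 9 alternatives tried. The exception required the S-phase and M-phase rows each to be covered to 50% by the other, which left RAD21 at 67.8% and CTCF at 49.0%. With M-phase rows of a false discovery rate (FDR) under 5%, CTCF at 53.3% (51.3 to 55.2%) and RAD21 at 52.3% (50.4 to 54.2%) were close, with overlapping intervals. That limit kept 8917 of 24391 M-phase CTCF rows and 14307 of 22966 M-phase RAD21 rows. At factor-free sites RAD21 was found more often than CTCF under each of the 9, with 80.8% and 62.8% under the 50% rule.

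**Figure D1:**
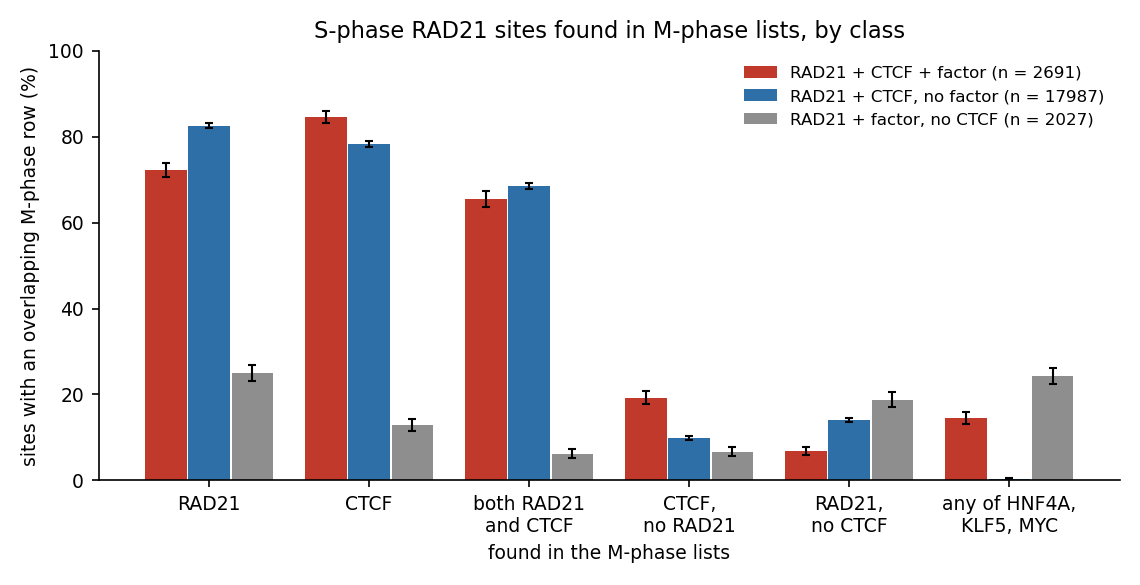
Share of S-phase RAD21 sites, in percent, that overlapped an M-phase row of the proteins named on the horizontal axis, for factor-bearing sites, factor-free sites and cohesin-factor sites without CTCF; bars start at 0 and lines are 95% Clopper-Pearson intervals over sites. At factor-bearing sites CTCF reached 84.7% and RAD21 72.2%, and at factor-free sites 78.3% and 82.5%.

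Counted by a 1-bp overlap, the 2 proteins parted in different ways in the 2 classes of sites. Both were found at 1761 of them, or 65.4% (63.6 to 67.2%), against 68.5% of factor-free sites and 55.3% of all S-phase RAD21 rows. CTCF without RAD21 was found at 517 of them, or 19.2% (17.7 to 20.8%), against 9.80% of factor-free sites and 11.0% of all RAD21 rows with CTCF, a difference of 9.41 points from factor-free sites (7.90 to 11.00). With 50% of both rows required that difference was 2.14 points (0.947 to 3.43). RAD21 without CTCF was rarer at factor-bearing sites, at 183 of them or 6.80% (5.88 to 7.82%). It was found at 14.0% of factor-free sites and 14.5% of all S-phase RAD21 rows. The difference from factor-free sites was -7.23 points (-8.26 to -6.10), so with a 1-bp overlap the 2 kinds of parting differed in opposite directions. With 50% of both rows required this did not hold: RAD21 was at 67.8% of factor-bearing sites but both proteins at only 38.2%. Neither kind of parting was adjusted for S-phase score. Among the 747 factor-bearing sites without M-phase RAD21, 69.2% still had a CTCF row, against 56.1% of the 3144 factor-free sites without M-phase RAD21.

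Strength in S phase differed between the classes and moved with these shares. The score in the lists is -10 times the log10 of the caller's p-value, so that higher means stronger. The median S-phase RAD21 score was 158 at factor-bearing sites and 178 at factor-free sites, while the median CTCF score was 288 and 196. CTCF rows held a median of 13.4 tags per 1000000 library tags at factor-bearing sites and 6.38 at factor-free sites, and were wider, at 1877 and 1425 bp. For RAD21 the direction depended on the measure. Its median fold enrichment over the caller's background was lower at factor-bearing sites, at 10.6 against 12.9. Its median tags per 1000000 were slightly higher, at 3.32 against 3.19, and its rows wider, at 985 against 924 bp. These S-phase values come from lists that the rule used and are a description. Factor-bearing sites with M-phase RAD21 had a median S-phase RAD21 score of 213, against 86.8 for those without.

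Within groups of equal S-phase score the RAD21 difference remained and most of the CTCF difference did not. When all cohesin-CTCF rows were divided into 10 equal groups of RAD21 score and weighted by the number of factor-bearing sites, the RAD21 difference was -7.66 points (-9.21 to -6.11). In the weakest group M-phase RAD21 was found at 35.4% of 376 factor-bearing sites (30.5 to 40.4%) and 50.2% of factor-free sites. In the strongest group it was found at 332 of 333 factor-bearing sites, or 99.7%, and at 99.8% of factor-free sites. The groups came together at the top: in each of the 8 weaker groups the factor-bearing share was the lower, and in the strongest 2 both shares were above 98%. For CTCF, within 10 groups of CTCF score, the difference was 1.396 points (0.0560 to 2.74). Its interval included 0 with summits required within 250 bp, at 0.292 points (-1.11 to 1.69), and with S-phase rows of an FDR under 5%, at 0.836 points (-0.468 to 2.14). Divided by RAD21 score instead, the CTCF difference was 7.66 points (6.21 to 9.10), and with groups formed on both scores jointly, a choice made after seeing the data, it was 3.09 points (1.74 to 4.44) for CTCF and -9.50 points (-11.1 to -7.95) for RAD21.

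**Figure D2:**
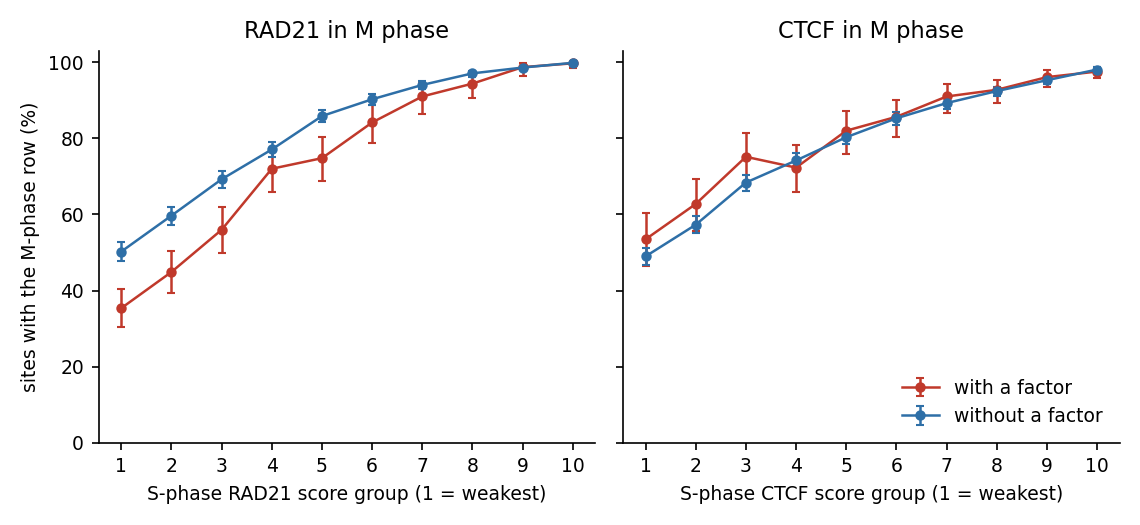
Share of cohesin-CTCF sites with an M-phase row of RAD21 (left) or CTCF (right), in percent, in 10 equal groups of the S-phase score of the same protein, from weakest to strongest; points are shares and lines 95% Clopper-Pearson intervals over sites. For RAD21 the factor-bearing sites lie lower in the weaker groups, with 35.4% against 50.2% in the weakest, while the CTCF points of both classes lie close together.

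How strictly a CTCF row had to match decided the direction of the CTCF difference. If the S-phase and the M-phase CTCF row each had to be covered to 50% by the other, CTCF was found at 49.0% of factor-bearing sites, and the difference from factor-free sites was -13.8 points (-15.8 to -11.8) rather than 6.36. Where CTCF was found in both phases, the median CTCF row at factor-bearing sites narrowed from 1902 bp in S phase to 982 bp in M phase, and at factor-free sites from 1472 to 911 bp. The fragment length estimated by the caller also differed, at 308 bp for the S-phase and 191 bp for the M-phase CTCF library, against 213 and 226 bp for RAD21. The part of these widths and fragment lengths in the reversal was not tested. Another rule required the M-phase CTCF summit to lie within 250 bp of the S-phase CTCF summit, in rows that still overlapped. It depends less on width. CTCF was then found at 82.9% of factor-bearing sites and the difference was 5.09 points (3.51 to 6.60). Within groups of equal CTCF score the CTCF difference ran from -16.7 points under the 50% rule to 8.46 points with M-phase rows of an FDR under 5%. The RAD21 difference stayed below 0 under each of the 9 alternatives tried.

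Where RAD21 or CTCF was listed in both phases, its row usually held a smaller part of the library's tags in M phase, and for CTCF the drop was steeper at factor-bearing sites. For RAD21 the median ratio of M-phase to S-phase tags per 1000000 library tags was 0.697 at the 1944 factor-bearing sites with both rows and 0.749 at factor-free sites. For CTCF the median ratio was 0.219 at 2278 factor-bearing sites, with quartiles of 0.166 and 0.296, and 0.338 at factor-free sites. In M phase itself the CTCF rows held a median of 3.10 tags per 1000000 at factor-bearing sites and 2.47 at factor-free sites, so the steeper drop started from the higher S-phase level of 14.6 against 7.18. Rows were called separately in each phase and the CTCF row widths changed as given above, which moves such ratios, and sites without an M-phase row have no ratio.

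**Figure D3:**
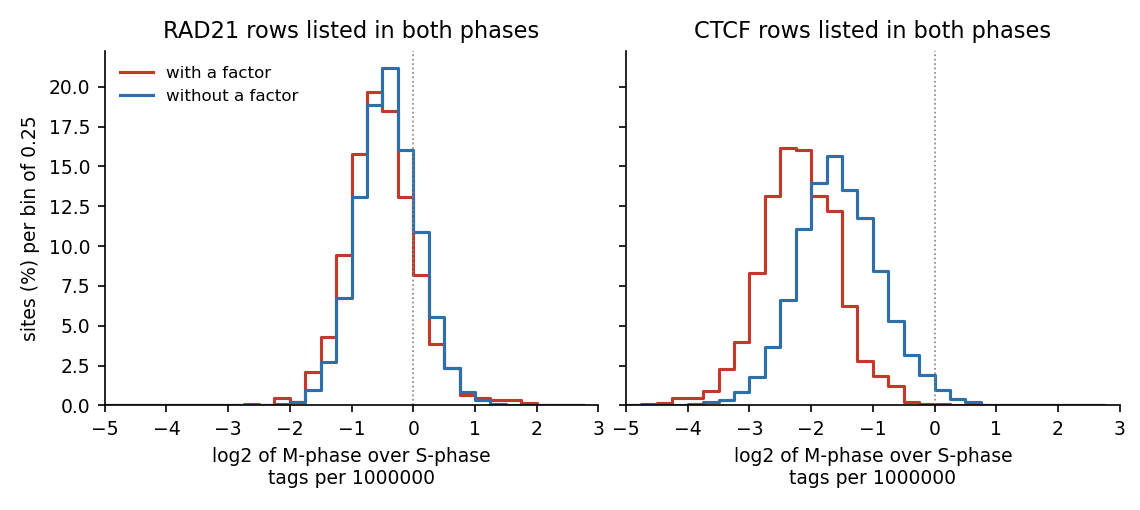
Log2 of the ratio of M-phase to S-phase tags per 1000000 library tags at cohesin-CTCF sites where RAD21 (left) or CTCF (right) was listed in both phases, as the percent of sites in bins of 0.25, for factor-bearing and factor-free sites; the dotted line marks an equal value in both phases. The RAD21 curves nearly coincide, with median ratios of 0.697 and 0.749, and the CTCF curve of factor-bearing sites lies further left, with 0.219 against 0.338.

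The transcription factors were seldom found again at these sites in M phase. At least 1 of the 3 was listed in M phase at 389 factor-bearing sites, or 14.5% (13.1 to 15.8%), against 3.59% of all S-phase RAD21 rows, most of which had no factor in S phase. An M-phase row lay at 124 sites for HNF4A, 116 for KLF5 and 192 for MYC, which is 4.61%, 4.31% and 7.13% of them, against 1.38%, 1.12% and 1.49% of all S-phase RAD21 rows. HNF4A was found again at 124 of the 1395 sites where it was listed in S phase, or 8.89% (7.45 to 10.5%). Over all S-phase RAD21 rows with HNF4A the share was 12.6%. KLF5 was found again at 86 of 931 sites, or 9.24% (7.46 to 11.3%), where the share over all RAD21 rows with KLF5 was 11.6%. MYC was found again at 185 of 1931 sites, or 9.58% (8.30 to 10.98%), where the share over all RAD21 rows with MYC was 10.8%.

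Cohesin-factor sites without CTCF held on to factors more often than the factor-bearing cohesin-CTCF sites. Of the 2027 sites without CTCF, 24.2% had an M-phase factor row, a difference of -9.72 points for the factor-bearing sites (-12.0 to -7.44). Without the M-phase KLF5 list the shares were 11.2% and 20.03%, a difference of -8.81 points (-10.9 to -6.71), in a setting chosen after seeing the data. With M-phase rows of an FDR under 5% only, the difference was -1.59 points (-2.61 to -0.650). The classes also differed in S phase: HNF4A was listed at 1479, KLF5 at 761 and MYC at 1384 of the 2027 sites without CTCF. At the 2691 factor-bearing sites the numbers were 1395, 931 and 1931. The any-factor shares were not adjusted for the factors listed per site. By factor, sites without CTCF kept HNF4A at 16.0%, KLF5 at 14.6% and MYC at 12.4%, and the factor-bearing sites differed from these by -7.14, -5.35 and -2.85 points. Within 10 groups of equal S-phase score of the factor itself the differences were smaller. HNF4A differed by -1.58 points (-3.29 to 0.130), an interval that includes 0. KLF5 differed by -3.55 points (-6.30 to -0.807) and MYC by -2.12 points (-4.05 to -0.186).

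Factor rows that were strong in S phase made up most of those found again. The sites of each factor were divided into 5 equal groups of its S-phase score. In the strongest group of HNF4A sites 94 of 279, or 33.7% (28.2 to 39.6%), had an M-phase HNF4A row, and in the weakest group 0 of 279. For KLF5 the shares were 28.5% (22.1 to 35.6%) in the strongest group and 1.07% (0.130 to 3.81%) in the weakest. For MYC they were 28.0% (23.6 to 32.7%) and 1.81% (0.730 to 3.69%). The median S-phase score of HNF4A rows found again was 369, against 94.8 for the others. Even the strongest group of each factor thus left most of its sites without an M-phase row of that factor.

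Some sites had an M-phase row of a factor that was not listed there in S phase. Of the factor-bearing sites without S-phase HNF4A, 0 of 1296 had an M-phase HNF4A row, against 0.0536% of all S-phase RAD21 rows without it. MYC appeared at 7 of 760 sites, or 0.921% (0.371 to 1.89%), against 0.193% of all RAD21 rows without S-phase MYC. KLF5 appeared at 30 of 1760, or 1.70% (1.15 to 2.42%), against 0.421% of all RAD21 rows without S-phase KLF5. Of the 389 factor-bearing sites with an M-phase factor row, 349 held 1 factor in M phase and 40 held 2 or 3. The matching count over all S-phase RAD21 rows was not made. The authors' false discovery rate, a percent obtained by exchanging ChIP and control, was under 5% for 0 of the 124 M-phase HNF4A rows, 9 of 192 MYC sites and 46 of 116 KLF5 sites. In the whole M-phase lists it was under 5% for 0 of 2413 HNF4A rows, 86 of 1974 MYC rows and 396 of 2118 KLF5 rows. For RAD21 it was under 5% at 1407 of the 1944 sites. With M-phase rows restricted to this limit, KLF5 was found again at 4.40% of its sites, MYC at 0.466% and HNF4A at 0%. The HNF4A value is set by the list, which has no row under the limit.

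Taking all 5 proteins, 1486 factor-bearing sites, or 55.2%, held RAD21 and CTCF and no factor in M phase, the commonest state. A further 457 sites (17.0%) held CTCF alone, 159 (5.91%) RAD21 alone, and 200 (7.43%, 6.47 to 8.49%) none of the 5. None of the 5 was listed at 7.66% of factor-free sites and 18.7% of all S-phase RAD21 rows. Whatever the factors, RAD21 with CTCF was at 55.3% of all S-phase RAD21 rows, CTCF without RAD21 at 10.4% and RAD21 without CTCF at 14.5%. At factor-free sites these shares were 68.5%, 9.80% and 14.0%. The states split by factor, and the sites that kept every protein, were counted at factor-bearing sites only and are a description. RAD21 and CTCF were joined by MYC alone at 105 sites, by HNF4A alone at 77 and by KLF5 alone at 63. Every protein listed at a site in S phase was also listed there in M phase at 99 sites, or 3.68% (3.0 to 4.46%). Of these, 94 belonged to the 1545 sites with 3 proteins in S phase, 4 to the 726 with 4 and 1 to the 420 with all 5. An M-phase factor row was present at 30 of the 230 sites with neither RAD21 nor CTCF, or 1.11% of factor-bearing sites. M-phase RAD21 was found at 76.9% (72.3 to 81.0%) of the 389 sites with an M-phase factor and at 71.5% (69.6 to 73.3%) of the other 2302.

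Which factor was present went with different shares of RAD21 and CTCF. Sites with HNF4A alone among the factors, 508 in number, had M-phase RAD21 at 80.1% (76.4 to 83.5%) and CTCF at 77.6% (73.7 to 81.1%). Sites with MYC alone, 869 in number, had RAD21 at 73.6% (70.6 to 76.6%) and CTCF at 89.1% (86.8 to 91.1%). The 168 sites with KLF5 alone had RAD21 at 72.6% (65.2 to 79.2%) and CTCF at 85.7% (79.5 to 90.6%). HNF4A-alone sites were thus higher than MYC-alone sites by 6.47 points for RAD21 (1.83 to 10.9) and differed from them by -11.5 points for CTCF (-15.8 to -7.42). They also differed in S phase: the median RAD21 score was 196 at HNF4A-alone and 156 at MYC-alone sites, and the median CTCF score 234 and 338. Within groups of equal score the RAD21 difference was 2.04 points (-1.69 to 5.76), an interval that includes 0, and the CTCF difference -8.86 points (-13.0 to -4.69). With 50% of both CTCF rows required, the CTCF difference between HNF4A-alone and MYC-alone sites was -3.49 points (-8.93 to 1.97), which includes 0.

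Against factor-free sites, and within groups of equal CTCF score, the CTCF difference was -3.74 points (-7.13 to -0.344) at HNF4A-alone sites and 3.64 points (1.62 to 5.66) at MYC-alone sites. It was 5.06 points (1.56 to 8.55) at sites with KLF5 and MYC, while for the other 4 combinations the interval included 0. The small CTCF difference over all factor-bearing sites is therefore a mean of combinations that differ in sign. For RAD21, within groups of equal RAD21 score, all 7 combinations lay below factor-free sites, from -3.71 points at HNF4A-alone sites (-6.72 to -0.712) to -11.9 points at sites with all 3 factors (-15.8 to -7.94). The interval included 0 only for the 84 sites with HNF4A and KLF5, at -4.48 points (-11.8 to 2.80).

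More factors in S phase went with less RAD21 and more factor rows in M phase. RAD21 was found at 75.7% (73.4 to 77.8%) of the 1545 sites with 1 factor, 68.5% (64.9 to 71.8%) of the 726 with 2 and 66.2% (61.4 to 70.7%) of the 420 with 3. The last 2 intervals overlap. Number and identity were not separated: with 1 factor RAD21 was at 80.1% for HNF4A, 72.6% for KLF5 and 73.6% for MYC. With 2 it was at 73.8% for HNF4A and KLF5, 68.4% for HNF4A and MYC, and 66.8% for KLF5 and MYC. The difference between 3 factors and 1 was -9.47 points (-14.6 to -4.59), and -5.50 points (-9.92 to -1.08) within groups of equal RAD21 score. CTCF showed no such order, at 84.9%, 85.8% and 81.7%. An M-phase factor row lay at 9.51% (8.10 to 11.1%) of sites with 1 factor, 15.8% (13.3 to 18.7%) of those with 2 and 30.2% (25.9 to 34.9%) of those with 3, where more factors give more chances of a row.

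**Figure D4:**
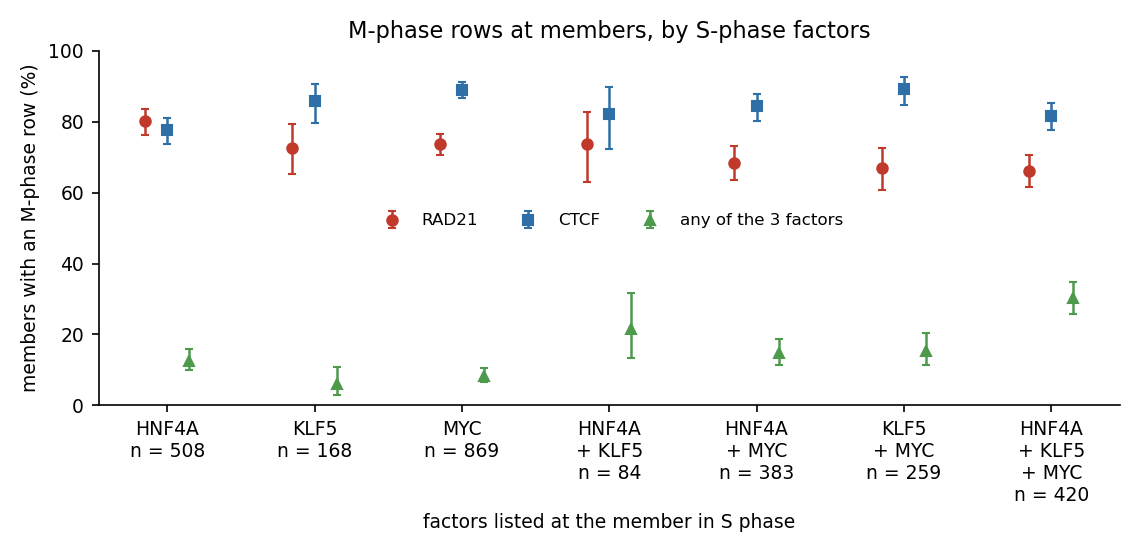
Share of factor-bearing sites with an M-phase row of RAD21, of CTCF or of any of the 3 factors, in percent, by the factors listed at the site in S phase; points are shares and lines 95% Clopper-Pearson intervals over sites. RAD21 and CTCF are close at sites with HNF4A alone (80.1% and 77.6%) and apart at sites with MYC alone (73.6% and 89.1%).

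In S phase the CTCF summit lay close to the RAD21 summit and the factor summits lay farther out. The median distance from the RAD21 summit was 60 bp for CTCF, with 71.3% of sites within 100 bp. It was 253 bp for HNF4A, 285 bp for KLF5 and 237 bp for MYC, with between 23.7 and 26.0% within 100 bp. These distances describe the lists that the rule used. Sheared fragments of 200 to 400 bp limit how finely summits can be placed.

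Up to 500 bp, M-phase RAD21 was found less often the farther the CTCF summit lay from the RAD21 summit in S phase. The share was 81.0% (78.6 to 83.2%) of the 1163 sites with summits at most 50 bp apart, 76.3% (73.1 to 79.3%) from there to 100 bp, 63.7% (58.9 to 68.4%) from there to 250 bp and 41.4% (31.6 to 51.8%) from there to 500 bp. At the 263 sites with summits over 500 bp apart it was 46.8% (40.6 to 53.0%), and this interval overlaps that of the class before. CTCF fell less over the same classes, from 89.3% to 63.1%. S-phase RAD21 strength moved with distance: the median RAD21 score was 197 in the nearest class and 88.0 in the farthest.

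At 775 sites, or 28.8%, a factor summit was nearer to the RAD21 summit than the CTCF summit was, a division made after seeing the data. M-phase RAD21 was found at 56.8% (53.2 to 60.3%) of these and at 78.5% (76.6 to 80.3%) of the other 1916, a difference of -21.7 points (-25.7 to -17.8). Within groups of equal RAD21 score the difference was -12.5 points (-16.2 to -8.82). CTCF was found at 77.4% and 87.6%, a difference of -8.17 points (-11.3 to -5.05) within groups of equal CTCF score. The division overlaps with that by the S-phase distance between RAD21 and CTCF summits. Among sites with M-phase RAD21, the median of that distance was 108 bp where a factor summit was nearer and 42 bp at the others. None of these differences was adjusted for that distance, so whether a nearer factor summit matters apart from it was not tested.

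**Figure D5:**
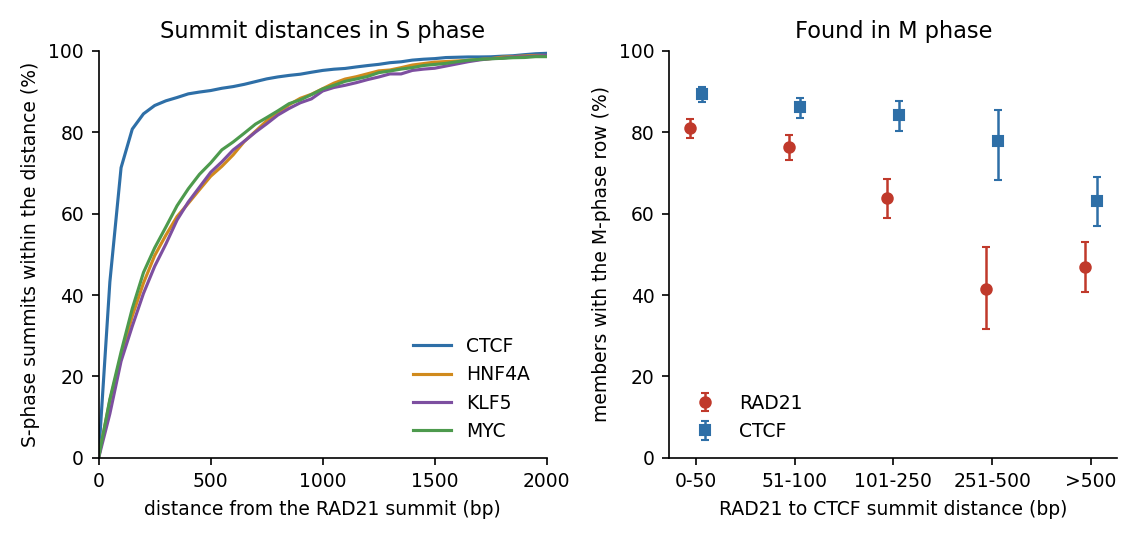
Left, percent of S-phase CTCF, HNF4A, KLF5 and MYC summits within a given distance, in bp, of the RAD21 summit at factor-bearing sites where the protein was listed. Right, percent of factor-bearing sites with an M-phase row of RAD21 or CTCF by the S-phase distance between RAD21 and CTCF summits, with 95% Clopper-Pearson intervals over sites; RAD21 is at 81.0% in the nearest class and 41.4% in the class that ends at 500 bp.

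Single sites show these states in tag counts, named by rules on fold enrichment (tags over the caller's local background) or on the number of proteins. A tag count is that of the whole row that overlaps the site, and a row can reach beyond it. The single site with all 5 proteins in both phases lies on chromosome 12 from 54610585 to 54611408. The S-phase RAD21 row was 824 bp wide with 19 tags, and the M-phase row 1504 bp wide with 44. CTCF had 163 and 59 tags, HNF4A 230 and 52, KLF5 110 and 24, and MYC 67 and 36. The HNF4A row was 5341 bp wide in S phase and 1349 bp in M phase. The FDR of the M-phase row was 20.47% for HNF4A and 100% for MYC.

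Among the sites of highest S-phase RAD21 fold enrichment, 1 on chromosome 20 from 48028579 to 48029833 held MYC in both phases. RAD21 had 74 S-phase and 77 M-phase tags there, CTCF 140 and 80, and MYC 44 and 20. The M-phase MYC row there has an FDR of 100%. Another on chromosome 20, from 47660449 to 47661773, held RAD21 (80 and 128 tags) and CTCF (221 and 124 tags) in both phases but MYC in S phase only, with 24 tags. Both sites lay among the 5 of highest enrichment.

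At some sites RAD21 was not listed in M phase and CTCF still was. On chromosome X from 69590595 to 69591702, RAD21 had 26 tags and a fold enrichment of 27.4 in S phase and no M-phase row, while CTCF had 64 tags and then 30. On chromosome 1 from 40037756 to 40038618, which held an S-phase MYC row of 37 tags, RAD21 with 23 tags had no M-phase row and CTCF had 202 and 37 tags. That S-phase CTCF row was 2301 bp wide and was overlapped by 2 M-phase CTCF rows, and the 37 tags are those of 1 of them. The converse was seen on chromosome 7 from 4637338 to 4638596, where RAD21 had 74 and 70 tags and CTCF, with 95 tags in S phase, had no M-phase row. At each of these 3 sites the S-phase factors had no M-phase row.

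Sites with strong factor rows in S phase were also found without a factor in M phase. The site with all 3 factors and the highest summed factor score, on chromosome 11 from 64417951 to 64419096, was overlapped in S phase by rows of 424 HNF4A, 76 KLF5 and 85 MYC tags and in M phase by no row of any of them. Its S-phase HNF4A row was 7552 bp wide, and 2 M-phase HNF4A rows overlapped that row outside the site. RAD21 (29 and 50 tags) and CTCF (154 and 59 tags) were listed there in both phases. On chromosome 17 from 7923055 to 7924441, HNF4A had 215 S-phase and 49 M-phase tags, with an M-phase FDR of 72.75%, and KLF5 and MYC were not listed again. On chromosome 15 from 39195600 to 39196159, the S-phase MYC row had 205 tags, and none of the 5 proteins was listed at the site in M phase. That MYC row was 2607 bp wide, and 1 M-phase MYC row overlapped it outside the site. These 3 sites have the highest summed factor scores of the 420 with all 3 factors, and they ended in 3 different states.

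Of the 30 sites with an M-phase factor and neither anchor protein, the one of highest RAD21 fold enrichment held HNF4A. On chromosome 11 from 9584711 to 9585749, it had 109 S-phase and 45 M-phase tags, with an M-phase FDR of 19.31%, while RAD21 (29 tags) and CTCF (63 tags) were listed in S phase only. The site on chromosome 13 from 24077636 to 24078815, with the highest RAD21 fold enrichment of those that held none of the 5 in M phase, had 29 RAD21, 52 CTCF and 12 MYC tags in S phase. Gene annotation and sequence of the build of these lists were not used here, so no site is assigned to a gene.

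Sites near the edge of the rule gave shares with wide intervals. Of 37 sites whose factor row overlapped the RAD21 row by only 1 to 100 bp, M-phase RAD21 was found at 83.8% and CTCF at 81.1%. Of 60 cohesin-CTCF sites whose nearest factor row ended 1 to 100 bp away, and which are therefore factor-free, the values were 75% and 78.3%. Factor-bearing sites were not all separate: they fall into 2580 groups that share no CTCF or factor row, and 206 sites shared a CTCF row with another. The median distance between neighbouring sites was 322290 bp.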

How the data were processed

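Peak lists of RAD21, CTCF, HNF4A, KLF5, MYC and H3 in S-phase and M-phase LoVo cells were used, 12 lists from 16 libraries of which 4 were IgG controls. Per the submitters' processing notes, CASAVA 1.4, BWA, MACS 1.4 and build hg18 were used. Per the file headers, MACS 1.4.0rc2 called peaks against IgG with a p-value cutoff of 1e-05, keeping at most 1 tag at a position. Tag counts were deposited as whole numbers, not normalized. As a score the authors deposited the log10 of the p-value times -10. Fold enrichment, a deposited ratio, sets the tags of a row against the background expected from the control. An FDR in percent was deposited beside each row and comes from exchanging ChIP and control.

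All rows were used. Python 3.11.15 with pandas 2.3.3, numpy 2.4.6 and scipy 1.17.1 computed the overlaps. A protein was called found at a site if an M-phase row of it overlapped the S-phase RAD21 row by 1 bp or more. Intervals for shares are Clopper-Pearson and for raw differences Newcombe. Standardised differences compare shares within 10 equal score groups, weighted by the class named first, with normal intervals. Tags were scaled by the filtered tags in the headers, with exact Poisson intervals. The overlaps and the standardised differences were checked with simulated data. Named sites are a part of the following, on chromosomes 1 to 22 and X: the 5 of highest RAD21 fold, the 5 with most M-phase proteins, the 5 of highest fold with none, the 3 of highest fold in each discordant state and the 3 of highest summed factor score. The sites, lists and rules were chosen with earlier results of these data known. No p-value was computed, since each group has 1 library.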

Additional observations from a re-analysis of the deposited data

How the results depend on the processing

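No paired analysis was possible because each target and phase had 1 library. Of 146 recomputed values over 16 results, 88 stayed inside the interval of the reported value (for the number of sites, within 1.5 times) and 2 reversed; all 16 did so without sites at H3 rows and with 1 site per chain of shared rows. The cause was not tested for the others.

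With 50% of both rows required, RAD21 was found at 67.8%, CTCF at 49.0%, both at 38.2%, HNF4A at 5.30%, KLF5 at 4.08% and MYC at 7.35%. Differences from factor-free sites were -13.0 points for RAD21 (-10.2 standardised), 2.14 for CTCF without RAD21 and, reversed, -13.8 for CTCF (-16.7 standardised). The factor difference from sites without CTCF was -6.75, and the CTCF difference of HNF4A-alone from MYC-alone sites -3.49, with an interval that includes 0.

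With summits within 250 bp, RAD21 was at 67.1%, CTCF at 82.9%, both at 60.2% and KLF5 at 6.98%. Differences were -14.6 for RAD21 (-11.9 standardised), 12.3 for CTCF without RAD21, -31.2 for a nearer factor summit and -15.5 for 3 factors against 1.

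With M-phase scores of at least 100, RAD21 was at 52.2%, CTCF at 69.2%, both at 42.9%, HNF4A at 3.23%, KLF5 at 1.61% and MYC at 2.38%. Differences were 14.1 for CTCF (5.70 standardised), 13.0 for CTCF without RAD21 and -5.30 for factors. With an M-phase FDR under 5%, RAD21 was at 52.3%, CTCF at 53.3%, both at 34.6%, HNF4A at 0%, KLF5 at 4.40% and MYC at 0.466%. Differences were 18.0 for CTCF (8.46 standardised), 11.3 for CTCF without RAD21 and -1.59 for factors.

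With an S-phase FDR under 5%, which left 2306 sites, RAD21 was at 76.5%, CTCF at 89.2% and both at 71.3%. With summits within 500 bp required of members, which left 1948 sites, RAD21 was at 74.3%, CTCF at 87.0% and both at 68.4%, and differences were -8.25 for RAD21 and 8.35 for CTCF (2.99 standardised). Joint groups of both scores gave -9.50 for RAD21 and 3.09 for CTCF.

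In a setting added after seeing the data, an M-phase row could lie anywhere in the S-phase row of the same protein. CTCF was then at 87.3% and MYC at 11.1%, and differences were 8.63 for CTCF (3.57 standardised) and 11.01 for CTCF without RAD21.

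The M-phase KLF5 library was the shallowest of the ChIP libraries, and a protein that is not listed is only known not to have passed the caller's cutoff.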

Other observations

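Factor-bearing sites were unevenly spread over the chromosomes. They made up 22.1% (19.2 to 25.2%) of the cohesin-CTCF rows on chromosome 19 and 19.5% (17.0 to 22.2%) on chromosome 17, but 6.47% (4.27 to 9.33%) on chromosome 18 and 5.35% (3.297 to 8.14%) on chromosome X. This distribution follows from S-phase lists that chose the sites and is a description. Over the 19 chromosomes with at least 50 factor-bearing sites, RAD21 was found at 65.6 to 78.6% of them, with a median of 73.0%. CTCF was found at 76.5 to 91.8% of them and more often than RAD21 on each of the 19. Among these 19 the share with an M-phase factor row was highest on chromosome 12, at 23.8% of 210 sites, and chromosome 15, at 21.7% of 129. It was lowest on chromosome 17, at 9.94% of 181, and the others lay between. These chromosomes were picked as the extremes, and the share over all factor-bearing sites was 14.5%. No matching share over all S-phase RAD21 rows was counted by chromosome.

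Histone H3 rows, the chromatin control, lay at few factor-bearing sites. An S-phase H3 row was present at 24 of them, or 0.892% (0.572 to 1.32%), against 0.423% of factor-free sites and 0.457% of all S-phase RAD21 rows. An M-phase H3 row was present at 2 of them, or 0.0743%, against 0.0445% of factor-free sites and 0.0516% of all S-phase RAD21 rows.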
